A study of Mus musculus with 10 samples.

Results

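The subunits of the mitochondrial respiratory chain and of the ATP synthase were followed in mouse liver after VEGF gene transfer. Members were all rows of the expression table whose symbol starts with Nduf, Cox4 to Cox8, Uqcr or Atp5, or is Sdha, Sdhb, Sdhc or Sdhd, and 92 of the 24016 transcripts met this rule, 1 per gene. Placed by the complex the protein belongs to or serves, they comprised 44 genes of complex I, 4 of complex II, 8 of complex III, 20 of complex IV and 16 of the ATP synthase (complex V). The rule reads names only and uses no measured value. It also takes in proteins that are not subunits of a finished complex, namely the complex I assembly factors Ndufaf1 to Ndufaf7 and Atp5sl and the supercomplex factor Cox7a2l. Ndufab1, the mitochondrial acyl carrier protein, is a complex I subunit that also serves fatty acid synthesis. Subunits encoded by mitochondrial DNA, the complex III subunit Cyc1 and the assembly factors under other names were not members. The mitochondrially encoded ones were not analysed here.

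Male young adult C57BL/6 mice received an adenovirus of serotype 5 through the tail vein, and liver RNA was sequenced on day 6 after gene transfer. The 5 AdVEGF mice received virus coding for VEGF-A under the CMV promoter, and the 5 AdCMV mice received an empty virus with the CMV promoter and no transgene, so that both groups carried an adenovirus infection and no uninjected liver was compared. The labels call the 5 samples of a group biological replicates, and p-values measure the spread between them. Values are RPKM, the reads on a transcript divided by its length and by the library's mapped reads, and can be compared between genes because they are per length.

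Electrons from NADH enter the chain at complex I and those from succinate at complex II, which is also the succinate dehydrogenase of the citric acid cycle. Ubiquinone carries them to complex III and cytochrome c carries them on to complex IV, cytochrome c oxidase, where oxygen is reduced. Complexes I, III and IV pump protons, and the ATP synthase uses the gradient to make ATP. Liver is rich in mitochondria, and most subunits are made in every cell type. A few complex IV subunits come in alternative isoforms that are used mainly in heart and skeletal muscle (Cox6a2, Cox7a1, Cox8b), in lung and vessel walls (Cox4i2) or in testis (Cox6b2, Cox7b2, Cox8c), and Ndufa4l2 is a paralog of Ndufa4 known from the response to low oxygen. Although Ndufa4 is named for complex I, its protein is regarded as a subunit of complex IV, and both genes were placed there.

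Libraries held 5758960 to 13494000 mapped tags in AdCMV and 5596560 to 8133950 in AdVEGF mice. The major urinary protein (Mup) genes, which code for abundant secreted liver proteins, took 36.6% ± 12.2 (SD, n = 5) of the reads on transcripts in AdCMV and 16.3% ± 7.92 (n = 5) in AdVEGF livers, and 15 of the 21 tested Mup transcripts were called lower on deposited RPKM (4 after median-ratio scaling). Every other gene's RPKM depends on that share, since each library was set to 1 total, and the median log2 fold change of all 13933 tested transcripts was 0.38 on deposited RPKM. Results are therefore given on deposited RPKM and again after median-ratio scaling, which sets the libraries so that the typical transcript does not move (median of all transcripts -0.0044). The hepatocyte markers Alb, Ttr, Apoa1, Serpina1c, Hnf4a and Cps1 were all detected. On deposited RPKM their summed level was 17845 to 22041 RPKM in AdCMV and 29800 to 38411 RPKM in AdVEGF livers. Their median log2 fold change was 0.37 on that scale, near that of all transcripts, and -0.03 after median-ratio scaling. Of the 6 markers, 2 were called higher on deposited RPKM and 0 after median-ratio scaling. By the adjusted p alone, 1 of the 6 was lower after median-ratio scaling. In whole liver, fewer cells of a type and less RNA per cell cannot be told apart.

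Together the 92 members had a summed level of 15356, 18400, 18624, 12917 and 11755 RPKM in AdCMV mice 1 to 5 and 17129, 16104, 16137, 19224 and 11576 RPKM in AdVEGF mice 1 to 5. The groups overlapped almost entirely, with means of 15410 ± 3117 and 16034 ± 2796 RPKM (SD, n = 5 each). The lowest liver of all was AdVEGF mouse 5 and the highest AdVEGF mouse 4. As a share of the reads on transcripts the members took 0.978% ± 0.213 in AdCMV and 1.06% ± 0.183 in AdVEGF livers (SD, n = 5 each). The sum of the reads on transcripts exceeded the mapped tags by 4.08% to 13.9% in AdCMV and by 2.31% to 6.48% in AdVEGF libraries. Of the reads on transcripts outside the Mup genes, the members' share was 1.55% ± 0.249 in AdCMV and 1.26% ± 0.141 in AdVEGF livers. The order of the groups thus depends on the denominator.

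Complex I genes summed to 4476 ± 817 RPKM in AdCMV and 4740 ± 840.5 RPKM in AdVEGF livers (SD, n = 5 each, as for the sums that follow). Complex II, with the fewest genes, summed to 312 ± 60.04 and 287 ± 39.9 RPKM. Complex III reached 2117 ± 423 and 2190 ± 379 RPKM. The complex IV genes came to 4461 ± 1134 and 4652 ± 802 RPKM, and those of the ATP synthase to 4044 ± 718 and 4163 ± 778 RPKM. In none of the 5 complexes did the groups separate, and AdVEGF mouse 5 was the lowest of its group in each. On deposited RPKM, among the 84 members that are not alternative isoforms, AdVEGF mouse 5 was the lowest of its group for 75 and AdVEGF mouse 4 the highest for 58. In the AdCMV group, mouse 3 was highest for 49 and mouse 5 lowest for 50. After median-ratio scaling AdVEGF mouse 5 was lowest for 49 and AdVEGF mouse 4 highest for 52, and in the AdCMV group mouse 2 was highest for 62, mouse 3 for 2, and mouse 5 lowest for 67. Mup genes took 28.6% of the reads on transcripts in AdVEGF mouse 5 and 11.2% in AdVEGF mouse 4. They took 18% in AdCMV mouse 3 and 32.4% in AdCMV mouse 5. The part of these shares in the order of the mice was not tested.

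**Figure D1:**
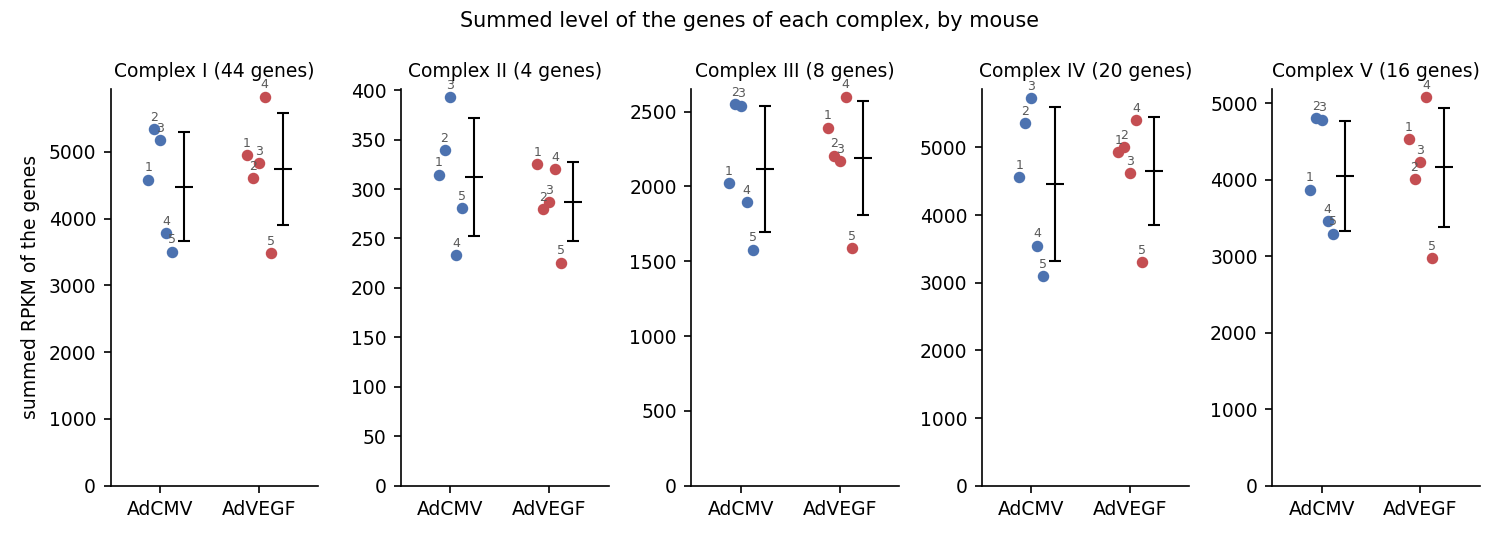
Summed RPKM of the genes of each complex (vertical axis, linear, from 0) in each mouse, with the mouse number beside each point and the mean and SD of 5 mice as a bar; gene numbers stand above each panel. AdCMV (blue) and AdVEGF (red) overlap in all 5 complexes, and AdVEGF mouse 5 is the lowest red point in each.

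Of the 92 members, 89 passed the filter on low values and were tested with limma over all 13933 transcripts. A transcript was called at a Benjamini-Hochberg adjusted p under 0.05 together with a log2 fold change over 1 or under -1. Cox4i2 and Ndufa4l2 were called higher in AdVEGF livers, 2.25% of the tested members beside 13% of all transcripts. Cox7a1 was called lower, 1.12% of members beside 1.54% of all transcripts. By the adjusted p alone, Cox7a2l and Atp5s joined the higher ones, giving 4 members (4.49%, against 21.9% of all transcripts), and Cox7a1 remained the single lower one (1.12% against 2.23%). Leaving out AdCMV mouse 3 raised the 4 to 6 (6.74%, with 37.7% of all transcripts higher in that fit), by Cox7b2 and the assembly factor Ndufaf7. Leaving out AdVEGF mouse 2 lowered it to 2 (2.25%, with 16.1% of all transcripts higher). The groups did not overlap, with the AdVEGF livers higher, for Cox4i2, Ndufa4l2 and Atp5s, which is 3.37% of members beside 14.3% of all transcripts, and with the AdVEGF livers lower for 0 members beside 1.29% of all transcripts. At 4 of the 89 tested, the share of members past the adjusted p in the upward direction was below that of all transcripts.

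At an unadjusted p under 0.05 on deposited RPKM, 6 of the 89 tested members were higher (Cox4i2, Ndufa4l2, Cox7b2, Cox7a2l, Atp5s and the assembly factor Ndufaf7), which is 6.74% beside 34.9% of all transcripts, and Cox7a1 and Cox6b2 were lower, 2.25% beside 3.69%. With voom on reads recovered from the RPKM values, 6 were higher and 2 lower at an unadjusted p under 0.05, and 3 passed the adjusted p. On the median-ratio scale the unadjusted p gave 2 higher members (2.25% beside 18.3%) and 31 lower ones (34.8% beside 17.3%). Over all tested members, log2 fold changes on deposited RPKM were within 0.25 of 0 for 68 of the 89 tested members (76.4%), beside 28.2% of all transcripts, and the median of the members was 0.03, with 48 values above and 41 below 0. For 81 members the 95% interval of the log2 fold change lay inside -1 to 1, so that a change as large as the fold threshold was outside it. This held for 50.6% of all transcripts, and on the median-ratio scale for 76 members beside 67.1% of all transcripts. After median-ratio scaling the members had a median of -0.37, with 83 of 89 values below 0. The members' median minus that of all transcripts was -0.35 on deposited RPKM and -0.36 after median-ratio scaling. The gap was smaller among the 687 transcripts of 100 RPKM and over, which held 54 members. There the medians on deposited RPKM were 0.05 for members and 0.29 for all transcripts. After median-ratio scaling they were -0.35 and -0.11. Among the 653 transcripts under 600 bases, which held 36 members, the gap was larger. Medians of members and of all transcripts there were 0.05 and 0.56 on deposited RPKM, and -0.36 and 0.19 after median-ratio scaling. On deposited RPKM they were 0.13 and 0.33 from 600 to 1000 bases (24 members), and -0.02 and 0.38 at 1000 bases and over (29 members).

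Median-ratio scaling left the called members the same, 2 higher (2.25% beside 7.77% of all transcripts) and 1 lower (1.12% beside 3.14%). By the adjusted p alone, 2 members were higher (2.25% beside 12.7%) and 14 lower (15.7% beside 10.3%) on that scale. The 14 lower members were 8 of complex I (Ndufa8, Ndufa9, Ndufa10, Ndufb10, Ndufs1, Ndufv1, Ndufaf1 and Ndufaf4), Sdha, Sdhb and Sdhd of complex II, Cox7a1 of complex IV, and Atp5a1 and Atp5f1 of the ATP synthase. Complex III members gave 0. Leaving out 1 mouse at a time moved the 14 to between 8 and 35, the 35 being without AdCMV mouse 5, and 9 without AdCMV mouse 1, 9 without AdCMV mouse 2, 8 without AdVEGF mouse 2 and 9 without AdVEGF mouse 5. The share was 39.3% of members beside 10.5% of all transcripts without AdCMV mouse 5, 8.99% beside 8.1% without AdVEGF mouse 2, and 10.1% without AdCMV mouse 1, AdCMV mouse 2 or AdVEGF mouse 5, beside 7.74%, 8.75% and 9.14% of all transcripts. Of the 14, Ndufa10, Ndufb10, Ndufs1, Ndufaf1, Ndufaf4, Sdha, Sdhd and Cox7a1 stayed past the adjusted p in 10 of 10 such fits, Atp5f1 in 8, Ndufa8 and Ndufv1 in 5 each, Sdhb in 4, Ndufa9 in 3 and Atp5a1 in 2. These alternatives were chosen after the data had been seen. Called lower changed from 1 to 2 without AdVEGF mouse 3 and to 3 without AdCMV mouse 5 on this scale.

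**Figure D2:**
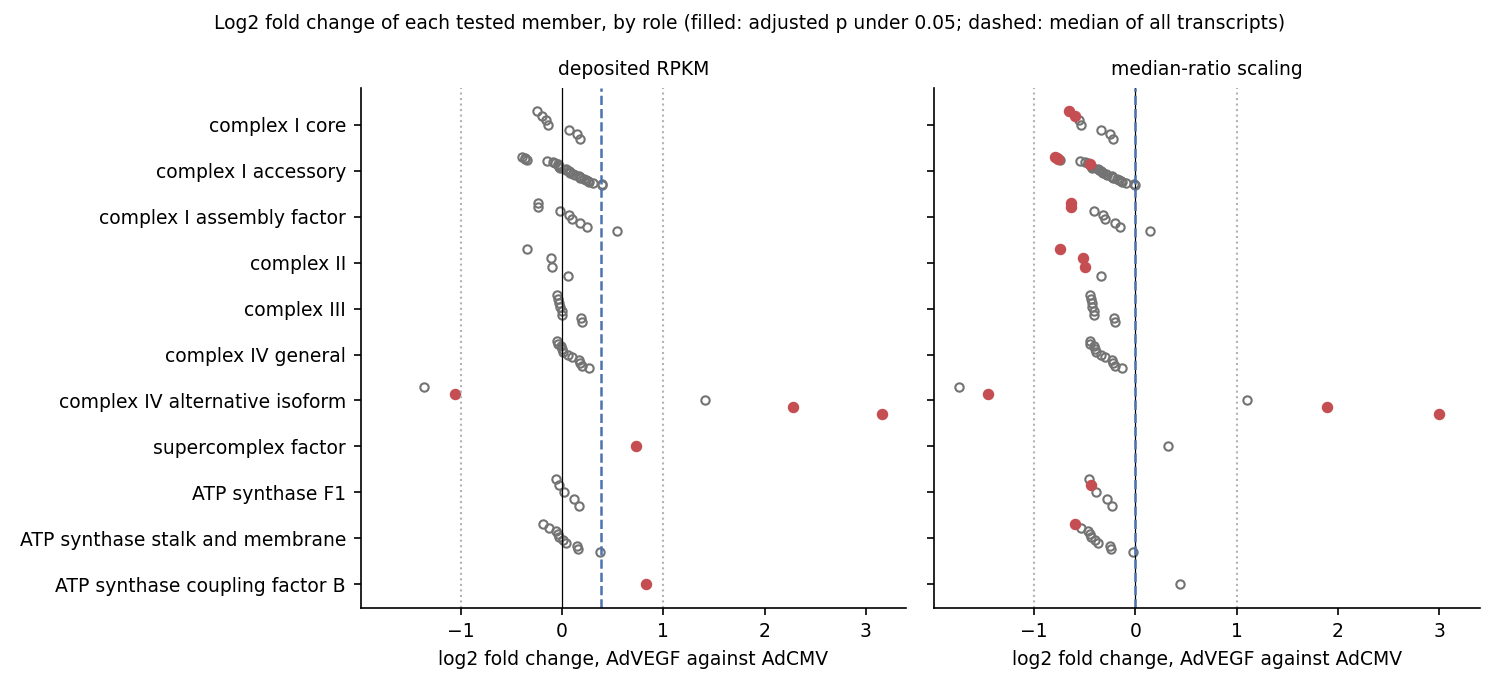
Log2 fold change of each tested member, AdVEGF against AdCMV (horizontal axis), by role (vertical axis), on deposited RPKM (left) and after median-ratio scaling (right); filled points have an adjusted p under 0.05, dotted lines mark -1 and 1 and the dashed line the median of all transcripts. Points of all complexes gather near 0 on the left and near -0.37 on the right, and the alternative isoforms of complex IV spread widely on both scales.

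Complex I core subunits, which hold the flavin and iron-sulfur centers, had a median log2 fold change of -0.14 on deposited RPKM over 7 genes, from -0.25 to 0.18, and 0 passed the adjusted p. On the median-ratio scale the median was -0.54, and Ndufs1, the largest of the iron-sulfur subunits, and Ndufv1, which binds NADH, were the 2 lower ones. The 29 accessory subunits, which surround the core, had a median of 0.06 and ranged from -0.39 for Ndufa8 to 0.40 for Ndufa2, again with 0 past the adjusted p. For the 8 assembly factors the median was 0.08, from -0.24 to 0.54.

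Ndufa6 was the most abundant complex I gene, with 364, 435, 372, 219 and 209 RPKM in AdCMV mice 1 to 5 and 386, 398, 388, 419.6 and 267 RPKM in AdVEGF mice 1 to 5. AdVEGF mouse 5 stood apart at the low end of its group, and AdCMV mice 4 and 5 were lower still. Ndufa6 had a log2 fold change of 0.26 (SE 0.24, adjusted p = 0.437) on deposited RPKM and -0.14 (SE 0.24, adjusted p = 0.711) after median-ratio scaling. Ndufa8, a subunit of the intermembrane space side, had 95.3, 123, 116, 86.8 and 88.8 RPKM in AdCMV mice 1 to 5. Its AdVEGF values were 91.3, 56.9, 89.5, 125 and 46.2 RPKM. Those values ran both above and below the AdCMV range, with mouse 4 highest and mouse 5 lowest, and the log2 fold change was -0.39 (SE 0.25, adjusted p = 0.252) on deposited RPKM and -0.80 (SE 0.24, adjusted p = 0.0281) after median-ratio scaling. Ndufa2, which has a thioredoxin-like fold, had 168, 223, 179, 179.8 and 161 RPKM in AdCMV and 244, 235, 244, 348 and 159 RPKM in AdVEGF mice 1 to 5. Only AdVEGF mouse 5 lay below the AdCMV values, and the log2 fold change of 0.40 (SE 0.22, adjusted p = 0.182) on deposited RPKM became -0.01 (SE 0.22, adjusted p = 0.99) after median-ratio scaling. Ndufa2 overlaps Tmco6 on the opposite strand by 59 bases, and whether the counting used strand was not stated; Tmco6 was listed at 1.09 to 2.40 RPKM over the 10 mice.

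Succinate dehydrogenase joins the chain to the citric acid cycle, and 3 of its 4 genes were lower after median-ratio scaling and not on deposited RPKM. Sdha, the flavoprotein that oxidizes succinate, had 62.8, 67.4, 84.1, 49.7 and 70.1 RPKM in AdCMV and 70.2, 64.1, 63.7, 56.5 and 54.3 RPKM in AdVEGF mice 1 to 5. For Sdhb, the iron-sulfur subunit, the values were 99.9, 102, 119.5, 85.6 and 79.6 RPKM in AdCMV and 109, 85.9, 79.5, 104 and 72.3 RPKM in AdVEGF mice. Both genes overlapped between the groups, with AdCMV mouse 3 highest in each. Sdhc, which anchors the enzyme in the membrane and binds heme and ubiquinone with Sdhd, had 88.7, 100.4, 105, 56.2 and 56.2 RPKM in AdCMV and 83.01, 86.1, 100.3, 91.5 and 55.7 RPKM in AdVEGF mice. Sdhd itself had 63.2, 69.6, 83.9, 41.96 and 74.8 RPKM in AdCMV and 62.6, 43.6, 43.4, 67.9 and 43.1 RPKM in AdVEGF mice. AdVEGF mice 2, 3 and 5 stood close together near the low end for Sdhd, beside AdCMV mouse 4, and AdVEGF mice 1 and 4 lay among the AdCMV values.

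On deposited RPKM, 0 of the 4 passed the adjusted p. The log2 fold changes were -0.10 (SE 0.19, adjusted p = 0.713) for Sdha, -0.11 (SE 0.19, adjusted p = 0.683) for Sdhb, 0.06 (SE 0.23, adjusted p = 0.861) for Sdhc and -0.35 (SE 0.22, adjusted p = 0.254) for Sdhd. After median-ratio scaling 3 of the 4 were lower, with -0.50 (SE 0.12, adjusted p = 0.00766) for Sdha, -0.51 (SE 0.17, adjusted p = 0.0462) for Sdhb and -0.75 (SE 0.16, adjusted p = 0.0049) for Sdhd, while Sdhc had -0.34 (SE 0.20, adjusted p = 0.254). None of the 4 was called, since no log2 fold change went below -1.

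Complex III, the cytochrome bc1 complex, had the narrowest range of log2 fold changes of the 5 complexes on deposited RPKM. Its 8 genes, among them the core proteins Uqcrc1 and Uqcrc2 and the Rieske iron-sulfur protein Uqcrfs1, ranged in log2 fold change from -0.05 to 0.20 on deposited RPKM and from -0.45 to -0.20 after median-ratio scaling. On both scales 0 of these 8 passed the adjusted p. Cytochrome c1 (Cyc1), also of this complex, was not a member and is given with the lists. Uqcr11, the most abundant, had 591, 708, 663, 508 and 407 RPKM in AdCMV and 669.5, 538, 584, 621 and 385 RPKM in AdVEGF mice 1 to 5. The AdVEGF mice lay inside the AdCMV range except mouse 5, which lay below it, and the log2 fold change was -0.04 (SE 0.23, adjusted p = 0.913). At the ends of the range, Uqcrb had 194, 259.6, 229, 147 and 159 RPKM in AdCMV and 234, 200.2, 187, 236 and 112 RPKM in AdVEGF mice, a log2 fold change of -0.05 (SE 0.24, adjusted p = 0.902). Uqcrq, which lies at the ubiquinone side, had 408, 546, 486, 499.6 and 324 RPKM in AdCMV and 464, 550.0, 492, 623 and 445 RPKM in AdVEGF mice, a log2 fold change of 0.20 (SE 0.21, adjusted p = 0.496).

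The general subunits of complex IV had the highest median level of the roles compared, 366 RPKM over all mice. Over 11 genes, with Ndufa4 included, the median log2 fold change was 0.06 on deposited RPKM, from -0.05 to 0.27, and -0.34 after median-ratio scaling, and 0 passed the adjusted p on either scale. Cox4i1, the ubiquitous form of the largest nuclear subunit, was highest, with 575, 653, 706, 525 and 444 RPKM in AdCMV and 652, 595, 692, 780.0 and 534 RPKM in AdVEGF mice 1 to 5. Those groups overlapped, and the log2 fold change was 0.17 (SE 0.21, adjusted p = 0.558). Cox6a1, the liver form of subunit VIa, had 388, 438, 463, 287 and 201 RPKM in AdCMV and 335, 393, 356, 441 and 268 RPKM in AdVEGF mice. All AdVEGF values lay inside the AdCMV range, which ran from mouse 5 at the bottom to mouse 3 at the top.

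Cox6b1, the ubiquitous subunit VIb, had 389, 442, 473, 291 and 249.8 RPKM in AdCMV and 425, 368, 333, 431 and 262 RPKM in AdVEGF mice 1 to 5. Cox7a2, the liver form of subunit VIIa, had 324, 398, 418, 214 and 188 RPKM in AdCMV and 393, 397, 380.3, 384 and 239.8 RPKM in AdVEGF mice. AdVEGF mouse 5 stood far below the other AdVEGF mice for Cox7a2 while AdCMV mice 4 and 5 were lower again. Cox8a, the general form of subunit VIII, had 483, 602, 501, 389.5 and 368 RPKM in AdCMV and 492, 432, 484, 585 and 292 RPKM in AdVEGF mice. For Ndufa4 the values were 311, 376, 574, 254 and 256 RPKM in AdCMV and 396, 507, 407, 272 and 274 RPKM in AdVEGF mice, with AdCMV mouse 3 and AdVEGF mouse 2 highest. The log2 fold changes were 0.06 for Cox6a1, -0.0012 for Cox6b1, 0.27 for Cox7a2, -0.05 for Cox8a and 0.10 for Ndufa4, with adjusted p of 0.875, 0.997, 0.449, 0.888 and 0.8.

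The alternative isoforms of complex IV held all 3 called members. Ndufa4l2 (in mm9 on chromosome 10, 126951995 to 126954210, plus strand) rose with the smallest adjusted p of the members on deposited RPKM, and with the second smallest, after Cox4i2, on the median-ratio scale. AdCMV mice 1 to 5 had 1.3, 1.16, 0.531, 0.666 and 0.908 RPKM and AdVEGF mice 1 to 5 had 5.4, 5.07, 4.67, 5.01 and 3.26 RPKM. Every AdVEGF liver was above every AdCMV liver, with a wide gap, and AdVEGF mouse 5 was again the lowest of its group. The log2 fold change was 2.28 (SE 0.27, adjusted p = 7.4e-06) on deposited RPKM, with a 95% interval of 1.72 to 2.84, and 1.89 (SE 0.28, adjusted p = 3.3e-04) after median-ratio scaling. It was called in 21 of 21 alternative settings, with log2 fold changes of 1.57 to 2.41. These values rest on 4 to 15 reads in AdCMV and 21 to 39 reads in AdVEGF libraries. The end of Ndufa4l2 overlaps that of Shmt2, a mitochondrial serine hydroxymethyltransferase on the opposite strand, by 31 bases; Shmt2 had 19.0 to 29.9 RPKM in AdCMV and 20.1 to 23.6 RPKM in AdVEGF livers, a log2 fold change of -0.17 (adjusted p = 0.494) on deposited RPKM and -0.58 (adjusted p = 0.00507) after median-ratio scaling.

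Cox4i2 (in mm9 on chromosome 2, 152579909 to 152590773, plus strand), the isoform that replaces Cox4i1 in some cells, was nearly silent in control livers. AdCMV mice 1 to 5 had 0, 0, 0.176, 0 and 0 RPKM, and AdVEGF mice 1 to 5 had 0.989, 1.5, 1.49, 0.683 and 0.619 RPKM. Only AdCMV mouse 3 gave a read, and all 5 AdVEGF livers lay above it. The gene passed the filter on low values through its AdVEGF mean alone, 1.06 RPKM beside 0.0352 RPKM in AdCMV livers. In reads this was 1 in the AdCMV libraries together and 25 in the AdVEGF libraries (4, 8, 6, 4 and 3), a ratio per mapped tag of 32.7 with an exact 95% counting interval of 5.35 to 1342, which covers counting error only. The log2 fold change on the log2(RPKM + 0.1) scale was 3.16 (SE 0.46, adjusted p = 8.9e-05) on deposited RPKM and 3.00 (SE 0.41, adjusted p = 1.8e-04) after median-ratio scaling. It understates or overstates a change from so few reads depending on the constant added, and with a constant of 1 it was 0.97 and no longer past the fold threshold. At its highest, Cox4i2 reached 1.5 RPKM, beside 444 RPKM or more for Cox4i1.

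Most markers of endothelial, mural (pericytes and smooth muscle) and stellate cells were also called higher on deposited RPKM, beside 13% of all transcripts. All 7 tested mural markers, Pdgfrb, Rgs5, Acta2, Des, Cspg4, Kcnj8 and Notch3, were called higher, and their summed level ran from 8.42 to 17.8 RPKM in AdCMV and from 51.9 to 98.6 RPKM in AdVEGF livers. The 6 endothelial markers were called higher too, with sums of 12.5 to 29.1 and 153 to 174 RPKM, and 3 of 4 stellate cell markers were called higher with sums of 60.1 to 95.2 and 88.6 to 197 RPKM. Their part in the rise of Cox4i2 and Ndufa4l2 was not tested. Of the 14 genes of the hypoxia response list, 1 was called higher, Epas1 (HIF-2 alpha), with 12.5 to 23.99 RPKM in AdCMV and 36.9 to 48.9 RPKM in AdVEGF livers, a log2 fold change of 1.32 (SE 0.21, adjusted p = 1.9e-04). By the adjusted p alone Ldha (lactate dehydrogenase A) and Egln1 (an oxygen sensor) were also higher, at 0.80 (SE 0.23, adjusted p = 0.02) and 0.65 (SE 0.22, adjusted p = 0.0384), but after median-ratio scaling Epas1 was the single higher gene, at 0.92 (adjusted p = 3.9e-04), and Lonp1, a mitochondrial protease, was lower, at -0.41 (adjusted p = 0.0232). Pdk1, Slc2a1, Bnip3 and Car9 were among the genes of the list that did not pass on either scale. They had log2 fold changes of 0.13, -0.20, 0.07 and 0.70 on deposited RPKM, with adjusted p of 0.683, 0.603, 0.839 and 0.327. The median of the 14 genes was 0.23 on deposited RPKM and -0.16 after median-ratio scaling.

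Cox7a1, the heart and muscle form of subunit VIIa, went the other way. AdCMV mice 1 to 5 had 8.82, 12.1, 16.2, 5.3 and 5.79 RPKM and AdVEGF mice 1 to 5 had 5.93, 2.99, 8.44, 2.05 and 4.13 RPKM. The groups overlapped, since AdCMV mice 4 and 5 lay below AdVEGF mice 1 and 3, and the AdCMV values alone spread widely. Its log2 fold change was -1.06 (SE 0.36, adjusted p = 0.0422) on deposited RPKM, with a 95% interval of -1.82 to -0.29, and -1.45 (SE 0.35, adjusted p = 0.0103) after median-ratio scaling. On deposited RPKM the call was lost when AdCMV mouse 1, 2 or 3 or AdVEGF mouse 2, 4 or 5 was left out, the log2 fold change reaching -0.81 and the adjusted p 0.103 over all 21 alternative settings. After median-ratio scaling the adjusted p stayed under 0.05 in 10 of 10 fits that left out 1 mouse. Reads per library numbered 12 to 59 in AdCMV and 6 to 17 in AdVEGF livers. Of 6 striated muscle markers, 2 were tested and neither passed the adjusted p; the list summed to 3.99 to 15.0 RPKM in AdCMV and 4.88 to 14.5 RPKM in AdVEGF livers, and Myh4 was listed at 0 in every mouse.

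Cox6b2, a testis form of subunit VIb, had 5.12, 6.46, 11.3, 3.7 and 0.757 RPKM in AdCMV and 1.94, 2.35, 4.67, 0.536 and 0.647 RPKM in AdVEGF mice 1 to 5. AdCMV mouse 5 lay among the lowest AdVEGF mice, and AdVEGF mouse 3 among the middle AdCMV mice. The log2 fold change of -1.36 (SE 0.60, adjusted p = 0.107) did not pass, and it did without AdCMV mouse 5 or without AdVEGF mouse 3. With a block for the replicate number, which the labels do not state as a pairing, the limma adjusted p was 5.4e-04. The block together with median-ratio scaling gave 0.0104. Cox7b2, another testis form, had a log2 fold change of 1.42 (SE 0.56, adjusted p = 0.075), with 0 to 0.551 RPKM in AdCMV and 0.331 to 2.00 RPKM in AdVEGF livers. It was called higher without AdCMV mouse 3 and, on deposited RPKM, with a block for the replicate number. Cox7b2 passed the filter on low values through its AdVEGF mean alone, 0.973 RPKM beside 0.295 RPKM in AdCMV livers. Of the 3 testis markers, Prm2 and Tnp1 were listed at 0 in every mouse, and Prm1 at 0.187 RPKM in AdCMV mouse 2, 0.32 RPKM in AdCMV mouse 3 and 0 in the other mice; their part in the Cox6b2 values was not tested.

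The other 3 isoforms were too low to test. Cox6a2, the heart and muscle form of subunit VIa, had 0.211, 0, 0.194, 0.324 and 0.266 RPKM in AdCMV and 0.817, 0.206, 0.273, 0.376 and 0.227 RPKM in AdVEGF mice 1 to 5, with AdVEGF mouse 1 above all others. Cox8b, the muscle form of subunit VIII, gave 1 read in AdCMV mouse 4 and 1 read in AdVEGF mouse 5. It was listed at 0, 0, 0, 0.295 and 0 RPKM in AdCMV and 0, 0, 0, 0 and 0.414 RPKM in AdVEGF mice 1 to 5. Cox8c gave 0 reads in all 10 libraries, where 3 reads on a transcript of 1 kilobase would be 0.222 to 0.536 RPKM.

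**Figure D3:**
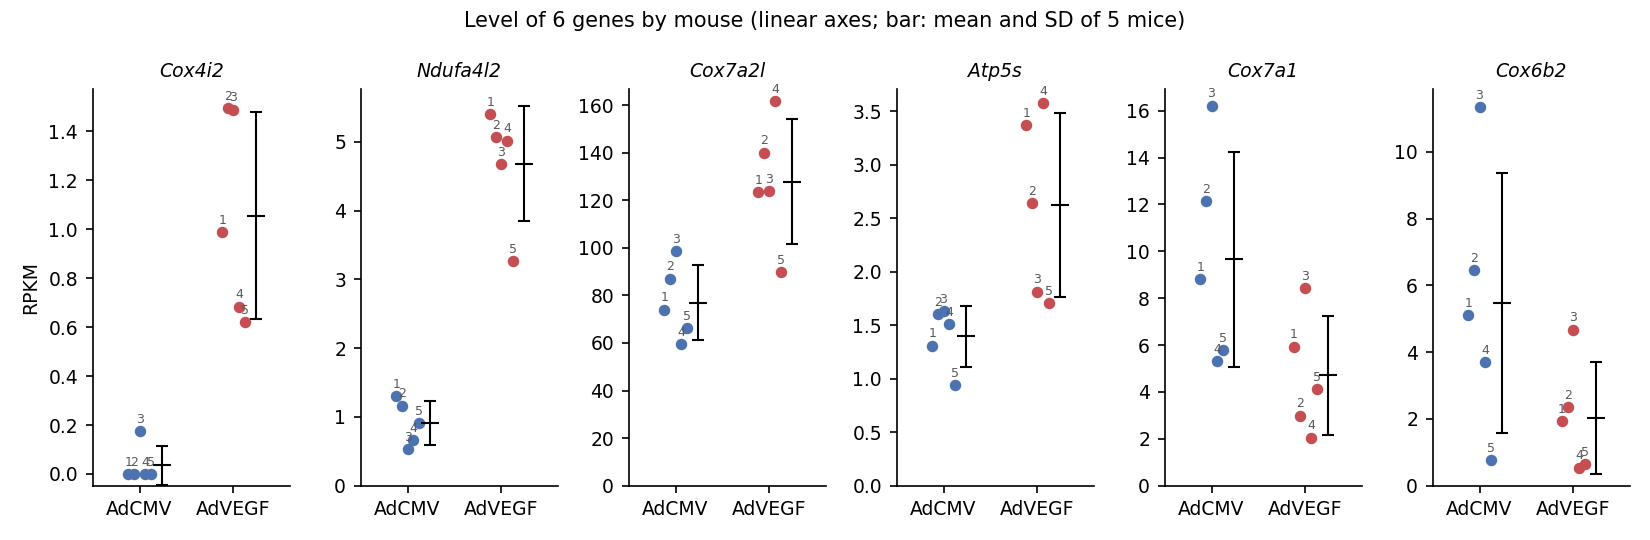
RPKM (vertical axis, linear) of Cox4i2, Ndufa4l2, Cox7a2l, Atp5s, Cox7a1 and Cox6b2 in each mouse (numbers beside the points), with the mean and SD of 5 mice as a bar. AdVEGF mice (red) are all above AdCMV mice (blue) for Cox4i2, Ndufa4l2 and Atp5s, and the colors overlap for Cox7a2l, Cox7a1 and Cox6b2.

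Cox7a2l is known as a factor that joins complexes III and IV into supercomplexes. Whether its protein does so in the mouse strain used here was not tested, and a transcript level does not show it. The Cox7a2l transcript is much more abundant than the isoforms that changed. AdCMV mice 1 to 5 had 73.9, 87.01, 98.6, 59.4 and 66.1 RPKM and AdVEGF mice 1 to 5 had 124, 140.1, 124, 162 and 89.8 RPKM. AdVEGF mice 1 to 4 exceeded every AdCMV liver, and AdVEGF mouse 5 lay below AdCMV mouse 3. Cox7a2l had a log2 fold change of 0.73 (SE 0.21, adjusted p = 0.0186) on deposited RPKM, with a 95% interval of 0.29 to 1.17, and 0.33 (SE 0.16, adjusted p = 0.172) after median-ratio scaling, where it no longer passed. The adjusted p was also over 0.05 without AdVEGF mouse 2.

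ATP synthase genes of the catalytic F1 part (Atp5a1, Atp5b, Atp5c1, Atp5d and Atp5e) had a median log2 fold change of 0.02 and those of the stalk and membrane part (10 genes) a median of -0.01, with 0 of the 15 past the adjusted p on deposited RPKM. After median-ratio scaling the medians were -0.39 and -0.42. Atp5e, the epsilon subunit, was the most abundant of all members, with 609, 751, 690.4, 565 and 518 RPKM in AdCMV and 701, 719, 803, 747 and 462 RPKM in AdVEGF mice 1 to 5. AdVEGF mouse 3 was highest and mouse 5 lowest of the 10 livers, and the log2 fold change was 0.12 (SE 0.22, adjusted p = 0.704). Atp5f1, subunit b of the stalk, had 36.4, 35.6, 72.4, 28.1 and 61.2 RPKM in AdCMV and 46.3, 35.1, 36.8, 32.5 and 42.4 RPKM in AdVEGF mice. AdCMV mice 3 and 5 were the highest of all, and the log2 fold change was -0.19 (SE 0.25, adjusted p = 0.575) on deposited RPKM and -0.59 (SE 0.16, adjusted p = 0.0199) after median-ratio scaling. Atp5f1 overlaps Wdr77 on the opposite strand by 750 bases, where Wdr77 had 3.24 to 8.85 RPKM in AdCMV and 6.04 to 8.06 RPKM in AdVEGF livers.

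Atp5s, coupling factor B, was by far the lowest of the ATP synthase genes and the only one past the adjusted p on deposited RPKM. AdCMV mice 1 to 5 had 1.31, 1.6, 1.63, 1.51 and 0.94 RPKM, and AdVEGF mice 1 to 5 had 3.37, 2.64, 1.81, 3.58 and 1.71 RPKM. No AdVEGF liver overlapped the AdCMV livers, although mice 3 and 5 were only just higher. Its log2 fold change was 0.83 (SE 0.27, adjusted p = 0.0354) on deposited RPKM and 0.44 (SE 0.26, adjusted p = 0.253) after median-ratio scaling, and it passed the adjusted p in 9 of 21 alternative settings. On deposited RPKM the adjusted p was over 0.05 without AdCMV mouse 1, 2, 4 or 5 or AdVEGF mouse 1, 2 or 4 (0.0508 to 0.0986). The 3 genes for subunit c, whose mature proteins are the same and which differ in their import sequence, were followed as a set. Atp5g1 had 177, 183, 208, 165 and 157 RPKM in AdCMV and 185, 181, 183, 257 and 125 RPKM in AdVEGF mice. Atp5g2 had 99.04, 115, 112, 88.98 and 103 RPKM in AdCMV and 149, 121, 123, 182 and 106 RPKM in AdVEGF mice, with AdVEGF mouse 4 highest. Atp5g3 had 269, 372, 314, 288 and 294 RPKM in AdCMV and 306, 209, 313, 464 and 181 RPKM in AdVEGF mice, with AdVEGF mouse 4 highest and AdVEGF mouse 5 lowest of the 10. Many of these subunits have near-identical processed copies in the genome, and how reads shared with them were counted was not stated beyond the use of uniquely mapped tags, so that their levels are uncertain to that extent.

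The ratio of 2 genes within a mouse was taken as log2 of RPKM + 0.1 of each, and where both genes lie well above 0.1 RPKM it depends little on the scaling between libraries. Of 9 isoform pairs chosen, 7 had both genes high enough to test with a two-sided exact permutation test over the 252 regroupings of 10 mice, whose smallest p is 0.00794. The log2 ratio of Ndufa4l2 to Ndufa4 was -7.80, -8.22, -9.83, -8.37 and -7.99 in AdCMV mice 1 to 5 and -6.17, -6.62, -6.41, -5.73 and -6.35 in AdVEGF mice 1 to 5. The groups did not overlap, and the AdVEGF mean was higher by 2.18 (exact p = 0.00794, adjusted p = 0.0139). For Cox4i2 against Cox4i1, the log2 ratio was -12.49, -12.67, -11.32, -12.36 and -12.12 in AdCMV and -9.23, -8.54, -8.77, -9.96 and -9.54 in AdVEGF mice, higher by 2.99 with the same p-values and again without overlap. Because Cox4i2 was listed at 0 in 4 AdCMV mice, the size of this difference is set by the constant added, and it was 0.80 (adjusted p = 0.0278) with a constant of 1 and 5.62 (adjusted p = 0.0139) with 0.01. The pair was admitted through the AdVEGF level of Cox4i2 alone. Its ratio uses the same few reads as the test of the level and adds no separate support to it.

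For Cox7a1 against Cox7a2, the log2 ratio was -5.18, -5.02, -4.68, -5.31 and -5.00 in AdCMV and -6.03, -7.01, -5.48, -7.48 and -5.83 in AdVEGF mice 1 to 5. Although the RPKM values of Cox7a1 overlapped, each AdVEGF ratio lay below each AdCMV ratio, with a difference of -1.33 (exact p = 0.00794, adjusted p = 0.0139). Cox7a2l against Cox7a2 had a log2 ratio of -2.13, -2.19, -2.08, -1.85 and -1.51 in AdCMV and -1.67, -1.5, -1.62, -1.25 and -1.42 in AdVEGF mice. Here AdCMV mouse 5 reached into the AdVEGF values, and the difference was 0.46 (exact p = 0.0238, adjusted p = 0.0333). The adjusted p was over 0.05 without AdCMV mouse 2 (0.0556) and without AdVEGF mouse 2, 4 or 5 (0.0667 each).

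Among the subunit c genes, Atp5g2 gained on Atp5g3. The log2 ratio was -1.44, -1.70, -1.48, -1.69 and -1.51 in AdCMV and -1.03, -0.78, -1.35, -1.35 and -0.78 in AdVEGF mice 1 to 5. No AdVEGF ratio overlapped the AdCMV ratios, and the difference was 0.51 (exact p = 0.00794, adjusted p = 0.0139), although neither gene passed the test on its own level. Atp5g1 against Atp5g3 differed by 0.17 (exact p = 0.286, adjusted p = 0.286), with log2 ratios of -0.61, -1.02, -0.59, -0.80 and -0.90 in AdCMV and -0.73, -0.20, -0.77, -0.85 and -0.53 in AdVEGF mice. Cox6b2 against Cox6b1 had log2 ratios of -6.22, -6.07, -5.37, -6.26 and -8.19 in AdCMV and -7.70, -7.23, -6.13, -9.41 and -8.46 in AdVEGF mice. They overlapped widely, and the difference of -1.36 did not pass (exact p = 0.103, adjusted p = 0.12), with an adjusted p of 0.037 without AdCMV mouse 5 and 0.0463 without AdVEGF mouse 3. The pairs Cox6a2 with Cox6a1 and Cox8b with Cox8a were not tested because 1 gene of each was too low.

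**Figure D4:**
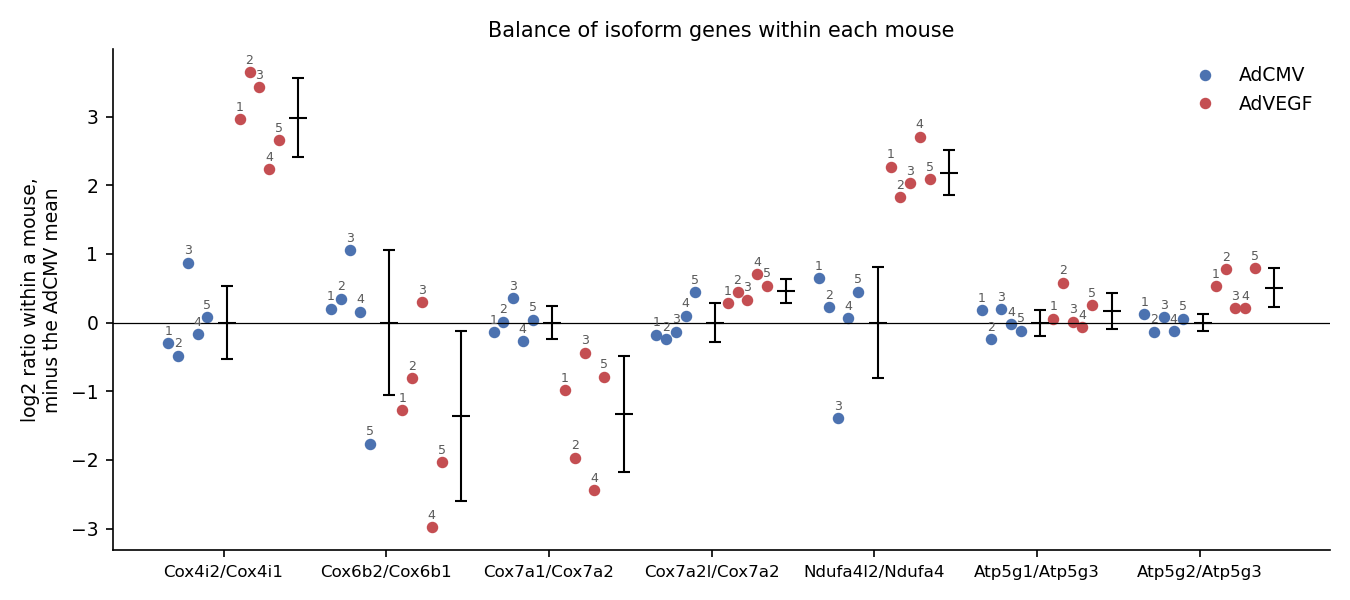
Log2 ratio of 2 isoform genes within each mouse, shown as the difference from the AdCMV mean of that pair (vertical axis), for 7 pairs; numbers give the mouse, and bars the mean and SD of 5 mice. AdVEGF (red) lies wholly above AdCMV (blue) for Cox4i2/Cox4i1, Ndufa4l2/Ndufa4 and Atp5g2/Atp5g3 and wholly below it for Cox7a1/Cox7a2.

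Promoters of respiratory genes are known for sites of NRF1, the ETS factor GABPA, YY1 and estrogen-related receptors. RefSeq windows on GRCm38.p6, from 250 bases before to 50 after a start site, were found for 76 of the 92 members (82 windows). Ndufa4l2 and Cox4i2, the members called higher, had no window and were not searched. Both strands were searched for exact letters. The NRF1 letters GCGCATGC stood in 12 member windows (14.6%), beside 2.71% of all 32851 windows, and the YY1 letters AAGATGGC in 12 (14.6%), beside 2.75%. The receptor letters AAGGTCA stood in 8 (9.76% beside 4.72%) and the GABPA letters CCGGAAGT in 5 (6.10% beside 3.89%). The letters ACGTG, the core of the hypoxia response element, stood in 22 (26.8% beside 19.6%) and TGGGAA, the core of the RBPJ site, in 16 (19.5% beside 25.6%). A match of letters is a description and not a site.

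Leaving out the alternative isoforms, the median log2 fold change on deposited RPKM was 0.01 over 12 members with the NRF1 letters and 0.03 over 60 without them. For 6 members the 250 bases before the start are shown, 5′ to 3′ on the gene's strand, with matched letters in capitals. Ndufa6 is the most abundant complex I gene, Ndufa8 the complex I gene with the lowest log2 fold change and Sdhb a succinate dehydrogenase subunit, and each carries the NRF1 letters (as GCATGCGC). Uqcr11, the most abundant complex III gene, carries ACGTG and CCGGAAGT, and Cox7a1, which fell, and Cox7a2l, which was higher on deposited RPKM, hold none of the 6 in these bases. The searched windows ran 50 bases further, and with those bases included Uqcr11 also held the NRF1 letters and Cox7a1 ACGTG. The choice was made with the values known. On GRCm38.p6 they lie at chr15:82354292-82354541 (minus strand), chr2:36049339-36049588 (minus), chr4:140961021-140961270 (plus), chr10:80406822-80407071 (minus), chr7:30183921-30184170 (plus) and chr17:83514334-83514583 (minus).
Ndufa6: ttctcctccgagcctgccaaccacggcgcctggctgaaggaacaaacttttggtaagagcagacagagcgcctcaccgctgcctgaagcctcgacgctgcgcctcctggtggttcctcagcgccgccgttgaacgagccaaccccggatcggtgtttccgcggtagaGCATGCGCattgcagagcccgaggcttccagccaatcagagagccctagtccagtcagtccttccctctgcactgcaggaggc
Ndufa8: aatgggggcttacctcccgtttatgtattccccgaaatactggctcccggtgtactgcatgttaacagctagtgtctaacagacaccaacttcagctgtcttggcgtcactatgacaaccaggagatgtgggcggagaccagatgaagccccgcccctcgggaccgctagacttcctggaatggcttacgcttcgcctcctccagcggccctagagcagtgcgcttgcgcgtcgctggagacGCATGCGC
Sdhb: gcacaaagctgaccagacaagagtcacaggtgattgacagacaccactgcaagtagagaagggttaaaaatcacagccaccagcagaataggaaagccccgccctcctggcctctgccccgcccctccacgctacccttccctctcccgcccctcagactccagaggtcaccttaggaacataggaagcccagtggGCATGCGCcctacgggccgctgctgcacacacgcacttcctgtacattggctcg
Uqcr11: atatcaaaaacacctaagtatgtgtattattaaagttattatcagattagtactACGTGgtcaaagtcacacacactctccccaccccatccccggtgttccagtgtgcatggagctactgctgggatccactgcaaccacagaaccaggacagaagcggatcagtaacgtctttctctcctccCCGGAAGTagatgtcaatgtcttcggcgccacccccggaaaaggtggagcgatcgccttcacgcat
Cox7a1: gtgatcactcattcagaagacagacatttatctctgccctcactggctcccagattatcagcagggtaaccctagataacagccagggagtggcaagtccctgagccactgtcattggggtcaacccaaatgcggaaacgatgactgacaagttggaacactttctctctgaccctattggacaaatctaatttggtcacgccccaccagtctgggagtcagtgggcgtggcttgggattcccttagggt
Cox7a2l: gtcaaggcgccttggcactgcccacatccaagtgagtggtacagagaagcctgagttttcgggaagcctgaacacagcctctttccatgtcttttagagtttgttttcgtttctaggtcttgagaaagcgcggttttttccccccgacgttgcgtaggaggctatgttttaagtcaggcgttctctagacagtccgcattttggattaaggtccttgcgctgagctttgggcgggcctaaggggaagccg

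Other genes of the pathway were followed by lists. Of 12 tested genes that move electrons, adenine nucleotides or protons between the complexes, 1 passed the test, Slc25a4, the heart and muscle form of the ADP/ATP carrier. It had 4.91, 7.63, 13.1, 3.87 and 7.44 RPKM in AdCMV and 33.6, 34.9, 28.8, 34.5 and 19.6 RPKM in AdVEGF mice 1 to 5, with no overlap, a log2 fold change of 2.11 (SE 0.28, adjusted p = 3.0e-05). The main liver form Slc25a5 had 207 to 418 RPKM in AdCMV and 228 to 381 RPKM in AdVEGF livers, a log2 fold change of -0.01 (SE 0.23, adjusted p = 0.971). Cycs, cytochrome c, had -0.19 (SE 0.25, adjusted p = 0.588) and Cyc1, cytochrome c1 of complex III, -0.10 (SE 0.19, adjusted p = 0.708). On the median-ratio scale, Cycs and Cyc1 were lower, at -0.59 (adjusted p = 0.0455) and -0.51 (adjusted p = 0.0469). The electron transfer flavoprotein genes Etfa, Etfb and Etfdh, the phosphate carrier Slc25a3, the outer membrane channels Vdac1, Vdac2 and Vdac3 and the uncoupling protein Ucp2 had log2 fold changes of 0.0088 (Vdac1) to 0.42 (Vdac2) on deposited RPKM and did not pass on either scale.

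Of the 18 citric acid cycle and pyruvate dehydrogenase genes, 0 passed the adjusted p on deposited RPKM or with voom (3 lower at an unadjusted p under 0.05, 4 with voom; median -0.12), and 13 were lower after median-ratio scaling (median -0.52). Of 18 genes of mitochondrial biogenesis, 1 was higher on deposited RPKM, Gabpb1, at 0.76 (SE 0.25, adjusted p = 0.0342), and 0 after scaling, when Ppara, Polg2, Tfb1m, Polrmt and Gabpa were lower, at -0.71 (Ppara) to -0.36 (Gabpa). Ppargc1a, the coactivator that drives biogenesis, had -0.05 (adjusted p = 0.918), Tfam, the mitochondrial transcription factor, 0.11 (0.742), and Nrf1 0.63 (0.184). The others on the list were Ppargc1b, Pprc1, Esrra, Yy1, Tfb2m, Polg, Peo1, Sirt1 and Sirt3, with log2 fold changes of 0.061 (Ppargc1b) to 0.67 (Pprc1) on deposited RPKM, and they did not pass on either scale. Of 25 assembly and copper factors of complexes III and IV, Taco1, a translation activator of a mitochondrial subunit, was the single gene past the adjusted p on deposited RPKM, at -0.74 (SE 0.21, adjusted p = 0.018). After median-ratio scaling 5 of the 25 were lower (Taco1, Cox15, Cox18, Lrpprc and Uqcc1), and Taco1 was called, at -1.14 (adjusted p = 1.2e-04). The 9 assembly genes of complexes II and V and the 12 of ubiquinone synthesis gave 0 on deposited RPKM and with voom (0 also at an unadjusted p under 0.05), and 1 and 3 lower ones after scaling. Of 77 mitochondrial ribosomal proteins, 2 were higher on deposited RPKM, Mrpl23 and Mrps6, at 0.60 and 0.61, and 12 were lower after scaling.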

How the data were processed

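Total liver RNA of 10 mice was depleted of ribosomal RNA and sequenced. The authors mapped the reads with TopHat (HOMER and the build mm9 are named in the submitters' processing notes) and deposited RPKM values, normalized to the number of uniquely mapped tags, for 24016 RefSeq transcripts. The deposited table also holds the authors' own fold changes and FDR values, which were not used.

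The 5 rows without a symbol were left out. limma 3.58.1 (R 4.3.3; lmFit, eBayes with trend) was run on log2(RPKM + 0.1) over the 13933 transcripts whose group mean exceeded 0.5 RPKM in AdCMV or AdVEGF mice, two-sided, with Benjamini-Hochberg adjustment over all of them. The thresholds follow the study's methods, which name no test. Whole reads were recovered from the steps of the RPKM values (at least 99.9875% of a library's values were whole). Total tags of 5596560 to 13494000 per library set the precision, and intervals and limits of 3 reads cover counting error only. No library repeated another, since between libraries of 1 group the variance was 12.4 times that of counting noise or more. The fit was also run on simulated reads with known changes in some transcripts. These reads held no shift in the Mup share between the groups, so the test was not checked for such a shift.

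Isoform ratios were computed within each mouse from RPKM + 0.1. Named members were those called, those past the adjusted p in 1 direction on both scales, the highest and the extreme log2 fold changes of each complex, the succinate dehydrogenase genes and the isoform pairs. Other genes were given as counts by list, naming the called ones and the genes of electron and nucleotide transport and of biogenesis, with the Mup genes given together. Members and lists were chosen with earlier results of these data known. Alternatives were the scaling (median-ratio, upper quartile, totals without Mup), the pseudocount, the filter, 1 row per symbol, limma's treat, voom on recovered reads, a block for the replicate number and leaving out each mouse; leaving out a mouse or adding the block on the median-ratio scale was chosen after the data had been seen.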

Additional observations from a re-analysis of the deposited data

Results flagged for a closer look

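A gap test was applied within groups of 5 mice, among them groups of the named members and isoform ratios but not these alone. It marked 4 of 81 groups examined (4.94%), where chance alone marks about 1 in 20. Cox6a2 stood at 0.817 RPKM in AdVEGF mouse 1, beside 0.206 to 0.376 RPKM in the other AdVEGF mice. These values rest on 1 to 3 reads per AdVEGF library, 8 in total. In AdVEGF mouse 5, Cox7a2 was at 239.753 RPKM, beside 380 to 397 RPKM in the other 4 mice. The same mouse was at 266.64 RPKM for Ndufa6, beside 386 to 419.6 RPKM. The log2 ratio of Ndufa4l2 to Ndufa4 was -9.83 in AdCMV mouse 3, beside -8.37 to -7.80 in the other AdCMV mice, and this mouse had the highest Ndufa4 and the lowest Ndufa4l2 level of its group.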

How the results depend on the processing

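Counts by the adjusted p alone moved with the scaling and with single mice, while 2 members were called higher and 1 lower under each of the 3 other scalings. Members called higher were 1 with a pseudocount of 1 and 2 or 3 in the other settings. Members called lower were 0 with a pseudocount of 1, no filter on low values, treat or voom. By the adjusted p alone, members higher were 2 after each of the median-ratio, upper quartile and Mup-free scalings, and members lower were 14, 12 and 21 in these, and 0 with no filter or voom. The cause was not tested. Leaving out each mouse in turn gave 2 to 3 members called higher, 0 to 2 called lower, 2 to 6 higher and 0 to 2 lower by the adjusted p alone. Together with median-ratio scaling (added after the data were seen), 2 were higher by the adjusted p alone in each case and 1 to 3 were called lower, while 9, 9, 16, 10 and 35 were lower by the adjusted p without AdCMV mice 1 to 5 and 15, 8, 11, 19 and 9 without AdVEGF mice 1 to 5. Ndufa4l2 and Cox4i2 were past the adjusted p in all 21 settings.

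Some members that did not pass changed sign with the scaling. The log2 fold changes by median-ratio, upper quartile and Mup-free scaling were -0.28, -0.24 and -0.30 for Atp5e, -0.37, -0.32 and -0.38 for Atp5g1, -0.23, -0.19 and -0.24 for Cox4i1, -0.34, -0.30 and -0.36 for Cox6a1, -0.14, -0.091 and -0.15 for Cox7a2, -0.31, -0.26 and -0.32 for Ndufa4, -0.14, -0.10 and -0.15 for Ndufa6, -0.34, -0.30 and -0.35 for Sdhc, and -0.20, -0.16 and -0.22 for Uqcrq. Atp5g2 had -0.029 and Ndufa2 -0.0055 by median-ratio and -0.040 and -0.017 by Mup-free scaling. Leaving out 1 mouse on deposited RPKM changed the sign of members that lay near 0, with ranges of -0.090 to 0.17 for Atp5g1, -0.32 to 0.024 for Atp5g3, -0.13 to 0.17 for Cox6a1, -0.13 to 0.11 for Cox6b1, -0.15 to 0.10 for Cox8a, -0.026 to 0.29 for Ndufa4, -0.059 to 0.20 for Sdhc, -0.16 to 0.090 for Uqcr11 and -0.14 to 0.14 for Uqcrb. The log2 ratio difference ranged from -1.80 to -0.96 for Cox6b2 to Cox6b1 and from 0.40 to 0.57 for Cox7a2l to Cox7a2.

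Replicate numbers are shared between the groups in the labels, which state no pairing. The correlations of same-numbered mice were 0.036, 0.11, 0.0076, 0.096 and 0.29, so the numbers were not taken to pair them, and the best partner was the same number for mice 1, 4 and 5 only. With the replicate block, members called higher were 3, called lower 2, and higher and lower by the adjusted p alone 6 and 2. After median-ratio scaling with the replicate block these were 2, 2, 2 and 24, and the log2 fold changes were those of that scaling. With sign flips within replicate numbers, whose smallest p is 0.0625, the log2 ratio differences of 2.99 (Cox4i2), 2.18 (Ndufa4l2), -1.33 (Cox7a1), 0.46 (Cox7a2l) and 0.51 (Atp5g2) had an adjusted p of 0.0729 each, so this test could not have passed. Depth limits Cox4i2, Cox8b, Cox8c and the other isoforms with few reads.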

Other observations

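Outside the respiratory chain, most genes of the cytosolic ribosome were higher on deposited RPKM. Of 79 tested cytosolic ribosomal proteins, 58 were higher by the adjusted p and 0 lower, beside 21.9% and 2.23% of all transcripts. Their median log2 fold change was 0.76, beside 0.38 for all transcripts. Rps14 and Rps28 were called, at 1.03 (SE 0.26, adjusted p = 0.00867) and 1.00 (SE 0.28, adjusted p = 0.0168), beside 13% of all transcripts called higher. After median-ratio scaling 2 of the 79 were higher by the adjusted p, Rpl7 and Rps6, beside 12.7% of all transcripts. The median of the 79 was 0.35 on that scale. Rpl7 had 239.9 to 414 RPKM in AdCMV and 417 to 822 RPKM in AdVEGF livers, and Rps6 121 to 262 and 232 to 426 RPKM. Of 39 proteasome genes, Psmb8 and Psmb9, which code for catalytic subunits of the immunoproteasome, were called lower, at -1.13 (SE 0.21, adjusted p = 8.1e-04) and -1.45 (SE 0.26, adjusted p = 6.7e-04), and stayed so after scaling, at -1.53 and -1.85. After scaling 13 of the 39 were lower by the adjusted p, beside 10.3% of all transcripts. Psmb10, another immunoproteasome subunit, was also called on that scale, at -1.01 (adjusted p = 4.9e-04). Psmb11 was higher by the adjusted p alone, at 0.78 (SE 0.23, adjusted p = 0.0234). The 4 T and NK cell markers Cd3e, Cd3g, Cd8a and Nkg7 were also called lower, their sum running from 4.88 to 21.0 RPKM in AdCMV and from 3.02 to 8.28 RPKM in AdVEGF livers.

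Of 9 genes that remove superoxide and peroxides, 0 passed on deposited RPKM in limma or voom, with 0 also at an unadjusted p under 0.05, and 4 were lower after scaling, namely Cat (catalase, -0.84), Prdx3 (-0.76), Prdx5 (-0.87) and Sod2 (the mitochondrial superoxide dismutase, -0.78). The 24 tested import genes and the 9 of fission and fusion gave 0 in limma on deposited RPKM (1 and 0 at an unadjusted p under 0.05, and 1 and 0 past the adjusted p with voom), and 6 and 4 lower ones after scaling. By the adjusted p, 10.3% of all transcripts were lower after scaling. Clec4f and Vsig4 of the 4 Kupffer cell markers were called higher, at 2.15 and 2.14, while 0 of 3 erythroid markers passed. The 2 genes of the brown fat list were too low to test. Ucp1 was listed at 0 in every mouse, and Cidea had 0 to 0.239 RPKM in AdCMV and 0.128 to 1.17 RPKM in AdVEGF livers.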
